A study of Homo sapiens with 7 samples.

Results

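O-GlcNAc, a single sugar that cells attach to serines and threonines of many proteins in the nucleus and cytoplasm, was mapped on chromatin beside RNA polymerase II (Pol II) in BJAB cells, and the positions of both signals were compared peak by peak. The comparison took the 8988 O-GlcNAc peaks and the 19336 Pol II peaks on chromosomes 1 to 22, out of 132893 peaks in the 5 deposited lists of the series. BJAB is an established human B-cell line that the labels describe as derived from Burkitt's lymphoma. Chromatin from cells fixed in 1% formaldehyde for 5 min was precipitated with 10 µg of RL2, an antibody to O-GlcNAc on proteins, or of 8WG16, an antibody to the repeats of the largest Pol II subunit. No treatment or genotype is given for any library. Each antibody had 1 library, with no replicates, so no test between conditions was possible: the 95% intervals below cover counting error only, and the reads behind each peak are unknown.

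RL2 binds O-GlcNAc on many different proteins, so a peak does not tell which glycosylated protein on the chromatin it stems from. Possible carriers include transcription factors and Pol II itself, whose C-terminal repeats can carry O-GlcNAc. The transferase OGT adds the sugar and the hydrolase OGA removes it. Pol II peaks in such maps are found mainly at promoters, where polymerase pauses a short way into the gene, and at many mammalian promoters a pair of polymerases starts in opposite directions from the borders of a stretch that is low in nucleosomes. A peak list reduces each such site to a start, an end and a summit, the base with the highest signal. The question addressed here was where the O-GlcNAc summit lay within this outline of Pol II.

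O-GlcNAc summits lay beside the Pol II summit and seldom on it. Of the O-GlcNAc peaks, 7298 overlapped a Pol II peak by at least 1 bp (81.2%, 95% Wilson interval 80.4% to 82.0%), and each was paired with the Pol II peak that it overlapped most. The median distance between the paired summits was 157 bp (order-statistic interval 155 to 160 bp). The middle 50% of distances ran from 106 to 222 bp, and 90% were at most 345 bp. Distances of 100 to 200 bp held 3420 pairs (46.9%, 45.7% to 48.0%), whereas only 606 pairs (8.30%, 7.69% to 8.96%) had summits within 50 bp and 9 had them on the same base. A distance over 500 bp was found for 322 pairs (4.41%), and the farthest pair was 2486 bp apart.

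The distances formed 1 cluster on each side of the Pol II summit with a trough between them. In windows of 25 bp, the count of pairs went from 275 at 0 to 24 bp to 618 at 75 to 99 bp and to its highest value of 946 at 125 to 149 bp, 3.44 times the first. It was 901 at 150 to 174 bp and 748 at 175 to 199 bp, and fell to 244 at 250 to 274 bp. Along the plus strand, 3652 O-GlcNAc summits lay at the lower coordinate and 3637 at the higher one (50.0% and 49.8%), and the 2 clusters were alike: the fullest windows were 126 to 150 bp below with 496 pairs and 125 to 149 bp above with 459. An annotation of the build of the peaks was not used here, so neither side could be called upstream or downstream of a gene, and genes are not named.

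**Figure D1:**
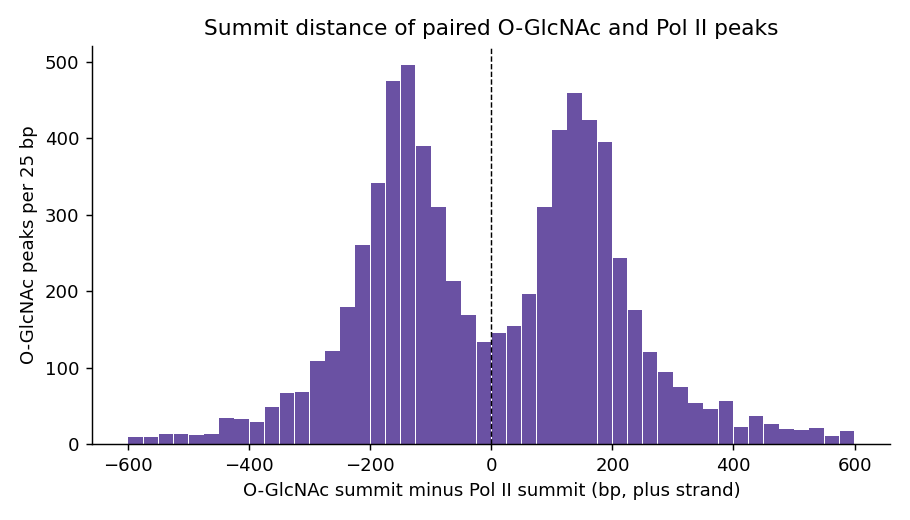
Number of paired O-GlcNAc peaks (vertical axis) by the position of the O-GlcNAc summit minus that of the Pol II summit in bp along the plus strand (horizontal axis, windows of 25 bp, dashed line at the Pol II summit). The counts form a cluster on each side, with 134 and 145 pairs in the windows next to 0 against 496 and 459 in the fullest; 208 pairs beyond 600 bp are not drawn.

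The distance was also taken chromosome by chromosome. The median over pairs was lowest on chromosomes 5 and 7, at 145 bp, and highest on chromosome 21, at 184 bp, with a middle value of 157 bp over the 22 chromosomes. Chromosome 21 also held the fewest pairs, 80, against 750 on chromosome 1. The share of O-GlcNAc summits inside the Pol II peak ran from 71.4% on chromosome 19, with 702 pairs, to 91.7% on chromosome 13.

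Most O-GlcNAc summits lay inside the Pol II peak, on its flank. The O-GlcNAc summit was within the paired Pol II peak at 6070 pairs (83.2%, 82.3% to 84.0%). The following zones were told apart: the summit zone within 50 bp of the Pol II summit, the edge zone within 50 bp of either end of the peak and not in the summit zone, the flank between them, and the outside beyond. The flank held 4939 O-GlcNAc summits (67.7%, 66.6% to 68.7%), the edge zone 996 (13.6%, 12.9% to 14.5%), the outside 757 (10.4%, 9.69% to 11.1%) and the summit zone the 606 given above. Of the edge summits, 525 were just inside the peak and 471 just outside. All 1228 summits outside the peak, near or far, lay a median of 67 bp (63 to 71 bp) past its end.

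These shares were next set against the length that each zone takes, since a flank is longer than an edge. Among the 6070 summits inside Pol II peaks, 9.98% (9.25% to 10.8%) were in the summit zone. This zone made up 13.4% of the length of the Pol II peaks of all 7298 pairs, a ratio of 0.744. The edge zone had 8.65% of the summits (7.97% to 9.38%) and 13.5% of the length, a ratio of 0.642. The flank had 81.4% of the summits (80.4% to 82.3%) and 73.1% of the length, a ratio of 1.11. Against these lengths, the inside summits were fewer at the Pol II summit and at the ends of the peak. The lengths also count the 1228 pairs with the O-GlcNAc summit outside. Summit and edge zones take a larger part of a narrow peak, and summits over 50 bp outside had a median Pol II width of 383 bp. Lengths for the inside pairs alone were not taken, so the ratios for those pairs are unknown.

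Over all pairs, the median O-GlcNAc summit lay nearer to the Pol II summit than to the end of the peak. This did not hold on the shorter arms or in the narrowest Pol II peaks, as given below. Each Pol II summit divides its peak into an arm on either side, and the position of an O-GlcNAc summit was expressed as its distance from the Pol II summit over the length of the arm it lay on, so that 0 is the summit and 1 the end of the peak. The median position was 0.377 (0.369 to 0.386), and the middle 50% ran from 0.244 to 0.749. Positions from 0.2 to 0.4 held 2583 pairs (35.4%), positions under 0.1 held 481 (6.59%), and positions from 0.9 to 1 held 221 (3.03%). No second cluster stood at the end of the peak: the counts went down from 1339 at 0.2 to 0.3 to 251 at 0.7 to 0.8, and to 202 at 1 to 1.1.

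**Figure D2:**
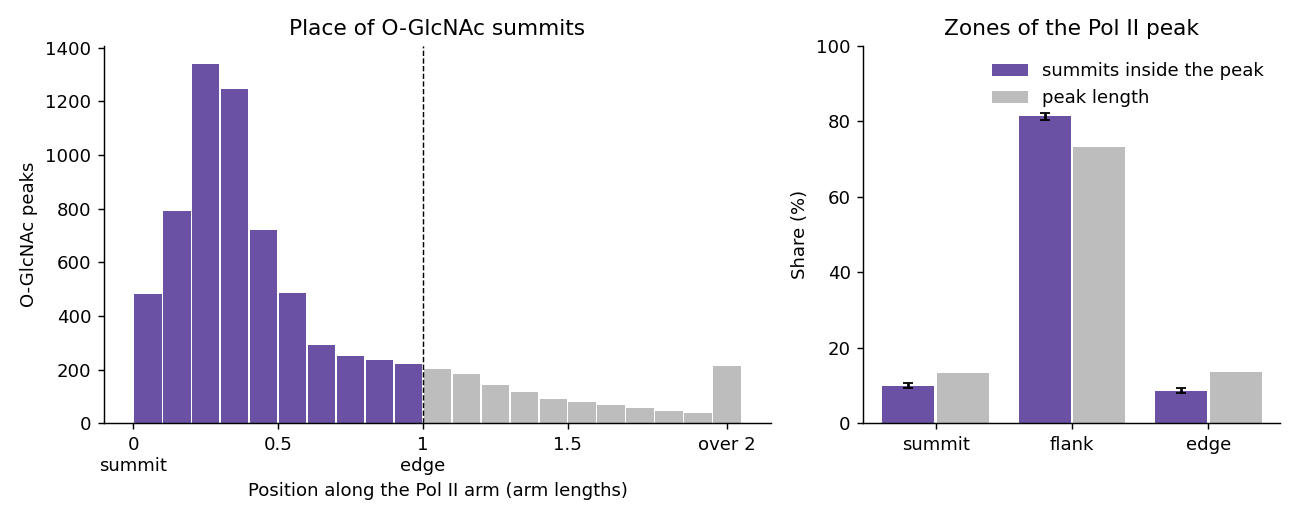
Left, number of paired O-GlcNAc peaks by position along the Pol II arm in arm lengths (violet inside the Pol II peak, grey past its end, the last bar all positions of 2 or more). Right, share of the O-GlcNAc summits inside Pol II peaks that lay in each zone, with 95% Wilson intervals. Beside it is the share of that zone in the length of the Pol II peaks of all pairs. The flank has 81.4% of the summits and 73.1% of the length.

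The O-GlcNAc peak as a whole was narrower than the Pol II peak and often stayed within it. Paired O-GlcNAc peaks had a median width of 406 bp and their Pol II peaks 678 bp. At 4207 pairs (57.6%) the O-GlcNAc peak lay wholly within the Pol II peak, at 2824 (38.7%) it passed exactly 1 end, and at 267 (3.66%) it held the whole Pol II peak. The Pol II summit was inside the O-GlcNAc peak at 4867 pairs (66.7%, 65.6% to 67.8%). The summits were therefore apart at many sites where the 2 outlines covered the same bases.

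The distance was close to equal on long and short arms of Pol II. Where O-GlcNAc lay on the longer arm, with a median arm length of 480 bp, the median distance was 157 bp (155 to 161 bp, 4910 pairs). On the shorter arm, with a median length of 199 bp, it was 156 bp (151 to 161 bp, 2362 pairs). The median position was accordingly 0.328 on the longer arm and 0.746 on the shorter, and O-GlcNAc summits were inside the Pol II peak at 92.4% and 64.2% of these pairs. The longer arm carried 67.5% of the O-GlcNAc summits (66.4% to 68.6%), and it held a mean of 64.1% of the peak length. With the longer arm at least 1.5 times the shorter, the 2 values were 79.2% (78.0% to 80.4%, 4497 pairs) and 70.0%. With a ratio of at least 3 they were 84.8% (82.5% to 87.0%, 970 pairs) and 79.6%. These shares of summits also count summits past the end of the peak, whereas the lengths stop there. Of the summits inside the peak, 4537 lay on the longer arm and 1516 on the shorter.

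The next comparison was between narrow and wide Pol II peaks. The pairs were divided into quintiles of Pol II width, from the narrowest (207 to 424 bp) to the widest (970 to 8954 bp). The median summit distance was 156 bp (151 to 161 bp) in the narrowest quintile, 136 bp (130 to 140 bp) in the second, 140 bp (137 to 144 bp) in the third, 167 bp (162 to 171 bp) in the fourth and 197 bp (190 to 205 bp) in the widest. The widest was thus 41 bp above the narrowest (interval 32.0 to 50.0 bp), while the median width went from 344 to 1226 bp. With peaks within 500 bp merged, the difference was 85 bp (73.0 to 97.0 bp). The lowest value was in the second quintile, so the distance did not go one way with width.

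Measured from the end of the Pol II peak, the place of O-GlcNAc changed far more with width. The median distance inside the nearest end was 0 bp in the narrowest quintile, 154 bp in the second, 285 bp in the third, 338 bp in the fourth and 400 bp in the widest. A summit at a fixed distance from the Pol II summit moves away from the ends of wider peaks by construction. Spearman's rho with Pol II width was 0.184 for the distance from the summit and 0.779 for the distance inside the end (across 7298 pairs of the same 2 libraries, given as a description). In the narrowest quintile 50.0% of the O-GlcNAc summits lay inside the Pol II peak, 40.6% were in the edge zone and 30.4% in the outside zone, and in the widest quintile these shares were 96.8%, 2.88% and 1.78%. The median position along the arm went from 1.00 to 0.291.

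The widest quintile also had the widest spread of distances. The middle 50% of distances ran from 106 to 212 bp in the narrowest quintile, 98 to 180 bp in the third and 137 to 336 bp in the widest. Summits within 50 bp made up 7.88% of pairs in the narrowest quintile, 12.2% in the second and 5.27% in the widest.

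Pol II height, by contrast, hardly went with the distance over all pairs. Height is the fold enrichment that the authors give for each peak over a background that no label or file names. From the lowest quintile (1.74 to 4.61) to the highest (9.34 to 24.7), the median distance was 151 bp (145 to 156 bp), 157 bp (152 to 162 bp), 159 bp (155 to 166 bp), 158 bp (152 to 164 bp) and 160 bp (155 to 164 bp). The highest quintile was 9 bp above the lowest (interval 1.89 to 16.1 bp), and rho was 0.035 across the 7298 pairs. This small difference turned to -18 bp when peak midpoints replaced the summits. The share of O-GlcNAc summits inside the Pol II peak went from 65.3% in the lowest quintile to 93.2% in the highest, and the edge zone from 24.3% to 7.47%. Higher Pol II peaks were also wider (rho 0.410).

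Width and height were then crossed in a grid of quintiles. Within the width quintiles, the highest minus the lowest height quintile differed by -6, 9, 0.5, -2.5 and -0.5 bp from narrow to wide. Within the height quintiles, the widest minus the narrowest width quintile differed by 33.5, 57, 48.5, 59.5 and 39 bp from low to high. The distance thus went with width at every height, in the sense of these end quintiles, and showed no steady direction with height at any width. The share inside the Pol II peak, in contrast, went with height in the narrowest Pol II peaks, at 42.0%, 54.5%, 57.4%, 64.5% and 68.4% from the lowest to the highest quintile. In the second width quintile it was 83.3% at the lowest height and 79.7% at the highest, and in the widest 93.6% and 97.9%. Cells of the grid were small in the corners: 57 pairs were both narrowest and highest (median 151 bp, 125 to 175 bp) and 94 both widest and lowest (190.5 bp, 166 to 231 bp).

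**Figure D3:**
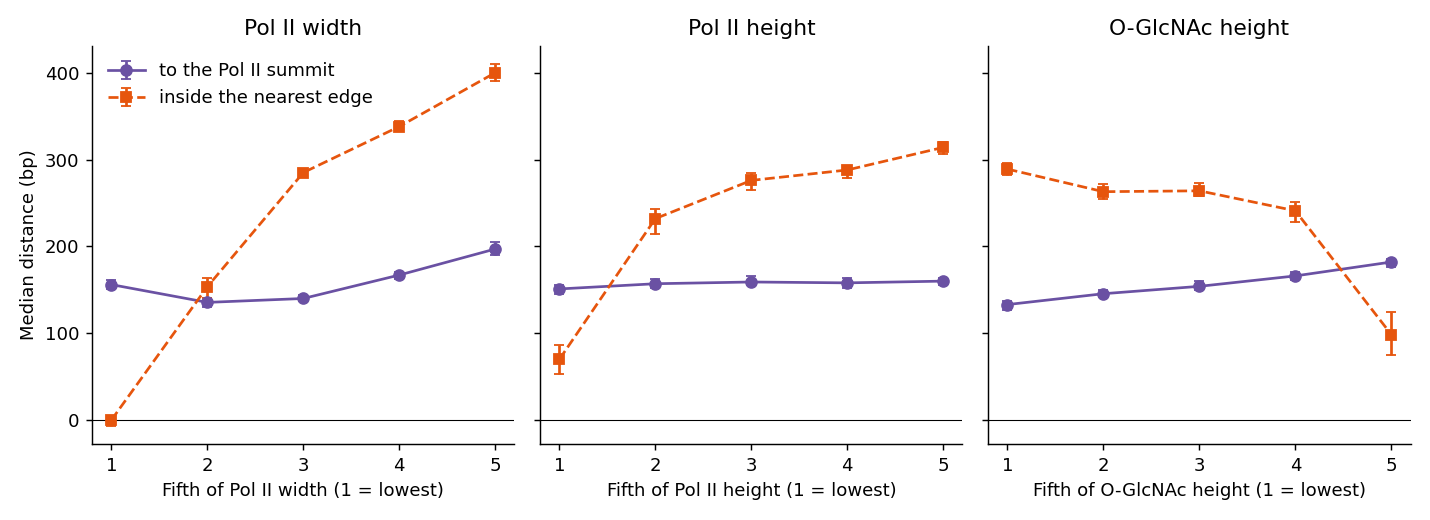
Median distance of the O-GlcNAc summit from the Pol II summit (violet circles) and inside the nearest end of the Pol II peak (orange squares), in bp, by quintile of Pol II width, Pol II height and O-GlcNAc height, with 95% order-statistic intervals. The distance from the summit stays between 133 and 197 bp, while the distance inside the end runs from 0 to 400 bp with Pol II width.

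The width and the height of the O-GlcNAc peak itself went with the distance, a view chosen after the values were seen. From the narrowest to the widest quintile of O-GlcNAc peaks the median distance was 141 bp (137 to 146 bp), 140 bp (135 to 144 bp), 146 bp (143 to 151 bp), 162 bp (157 to 167 bp) and 209 bp (202 to 218 bp), and rho was 0.235 across the 7298 pairs, against 0.183 for O-GlcNAc height. Median distances from the lowest to the highest quintile of O-GlcNAc fold enrichment were 133 bp (127 to 137 bp), 146 bp (142 to 150 bp), 154 bp (150 to 160 bp), 166 bp (161 to 170 bp) and 182 bp (176 to 185 bp). The difference between the end quintiles of height was 49 bp (42.3 to 55.7 bp), and 29 bp (18.7 to 39.3 bp) with midpoints in place of summits. O-GlcNAc summits within 50 bp of Pol II went from 15.2% to 3.90% of pairs, and summits inside the Pol II peak from 93.0% to 66.4%. The difference lay between 45 and 53 bp within each quintile of Pol II height and between 29 and 68 bp within each quintile of Pol II width. Within the quintiles of O-GlcNAc height, from low to high, the highest minus the lowest Pol II height quintile differed by 8, -0.5, 15, 24.5 and 16 bp. O-GlcNAc height and Pol II height themselves were weakly related, with rho of -0.104 across the 7298 pairs. By zone, the median O-GlcNAc fold enrichment was 3.17 (3.02 to 3.29) at the Pol II summit, 3.75 (3.69 to 3.82) on the flank, 4.73 (4.57 to 4.88) at the edge and 5.24 (5.09 to 5.53) outside, whereas that of the paired Pol II peak was 6.47, 7.16, 5.43 and 5.04. Zones farther from the Pol II summit thus had the higher median O-GlcNAc fold enrichment. Their Pol II peaks were lower and narrower, with median widths of 392 bp in the edge zone and 383 bp outside against 763 bp on the flank.

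The peaks that lead each zone show these arrangements at single sites, with coordinates on hg19 counted from 1. In the summit zone the highest O-GlcNAc peak, at chromosome 1, 16302176 to 16302803 (fold enrichment 12.4), had its summit 43 bp from that of the Pol II peak at 16302367 to 16302866 (3.72). The next in that zone were at chromosome 21, 43299131 to 43299856 (10.2, distance 43 bp), and chromosome 9, 35102907 to 35103315 (10.2, distance 18 bp). On the flank the highest was at chromosome 6, 131949072 to 131949587 (15.1), 148 bp from the summit of a Pol II peak of fold enrichment 6.16, followed by chromosome 15, 70391745 to 70392296 (14.9, distance 249 bp), and chromosome 14, 69658064 to 69658594 (14.4, distance 328 bp). The peak on chromosome 15 also overlapped SPT5, TRIM28 and OGA peaks, as did those at the chromosome 12 and chromosome 11 sites given below. In the edge zone the highest was at chromosome 19, 35167873 to 35168607 (17.3), whose summit was 2 bp inside the end of the Pol II peak at 35168169 to 35168594 (3.88) and 169 bp from its summit. Outside Pol II, the highest was at chromosome 19, 6199405 to 6199984 (18.5), with its summit 225 bp past the end of a Pol II peak of 229 bp and 323 bp from that summit. It was followed by chromosome 12, 132195241 to 132195920 (12.7, distance 132 bp), and chromosome 4, 47916471 to 47916983 (12.4, distance 243 bp).

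In the 3 widest Pol II peaks with O-GlcNAc, its summits lay between 123 and 547 bp from the Pol II summit. The Pol II peak at chromosome 7, 5564023 to 5572976, spanned 8954 bp and held 2 O-GlcNAc peaks, whose summits lay 547 bp below and 126 bp above the Pol II summit. The Pol II peak at chromosome 10, 74032329 to 74037244 (4916 bp), had an O-GlcNAc summit 123 bp from its own, and that at chromosome 11, 67116569 to 67121372 (4804 bp), had one at 179 bp. These O-GlcNAc summits lay between 246 and 3329 bp inside the nearest end of the peak. Along the arm, the position was 0.421 at the chromosome 11 site and 0.0886, 0.0453 and 0.0883 at the others.

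Some O-GlcNAc summits lay between 2 Pol II summits. An O-GlcNAc summit was counted as between when it had a Pol II summit on each side and these were at most 1000 bp apart. This held for 935 O-GlcNAc peaks (10.4% of all 8988, 9.79% to 11.1%), of which 933 overlapped Pol II. Seen from Pol II, 2730 neighbouring summits were at most 1000 bp apart, with a median gap of 628.5 bp (614 to 639 bp), and 920 of these gaps (33.7%, 32.0% to 35.5%) held an O-GlcNAc summit. The count depends on how finely Pol II peaks are divided: it was 3.10% of O-GlcNAc peaks with the Pol II list cut down to its strongest peaks, as many as O-GlcNAc had, 3.32% with gaps of at most 500 bp, and 0.254% with peaks within 500 bp merged, which removes such gaps by construction.

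Over all these gaps together, O-GlcNAc summits gathered towards the centre, though not in the widest gaps, as given below. The middle tercile of the gap held 479 of the 935 (51.2%, 48.0% to 54.4%), and the outermost decile at each end held 25, together 50 (5.35%, 4.08% to 6.98%). The fullest decile was the sixth, with 162. At 455 (48.7%, 45.5% to 51.9%) the O-GlcNAc summit was on bases that neither neighbouring Pol II peak covered. The gap around these summits had a median of 573 bp, and O-GlcNAc lay a median of 188 bp (184 to 191 bp) from the nearer Pol II summit and 385 bp (374 to 397 bp) from the farther. The nearer summit was the higher of the 2 at 538 of 933 (57.7%, 54.5% to 60.8%), where the higher Pol II peak was a median of 1.52 times the lower.

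In wider gaps the distance of O-GlcNAc to the nearer Pol II summit changed little, and fewer O-GlcNAc summits were central. In quintiles of the gap, with medians of 416, 495, 573, 685 and 887 bp, the median distance to the nearer summit was 165 bp (157 to 171 bp), 191 bp (186 to 201 bp), 194 bp (184 to 205 bp), 202 bp (189 to 211 bp) and 193 bp (173 to 217 bp). In the shortest gaps this distance is limited by the gap itself. The median distance to the farther summit went from 245 to 697 bp, and the share of O-GlcNAc summits in the middle tercile from 74.3% (67.6% to 80.1%) to 23.5% (18.0% to 30.1%).

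**Figure D4:**
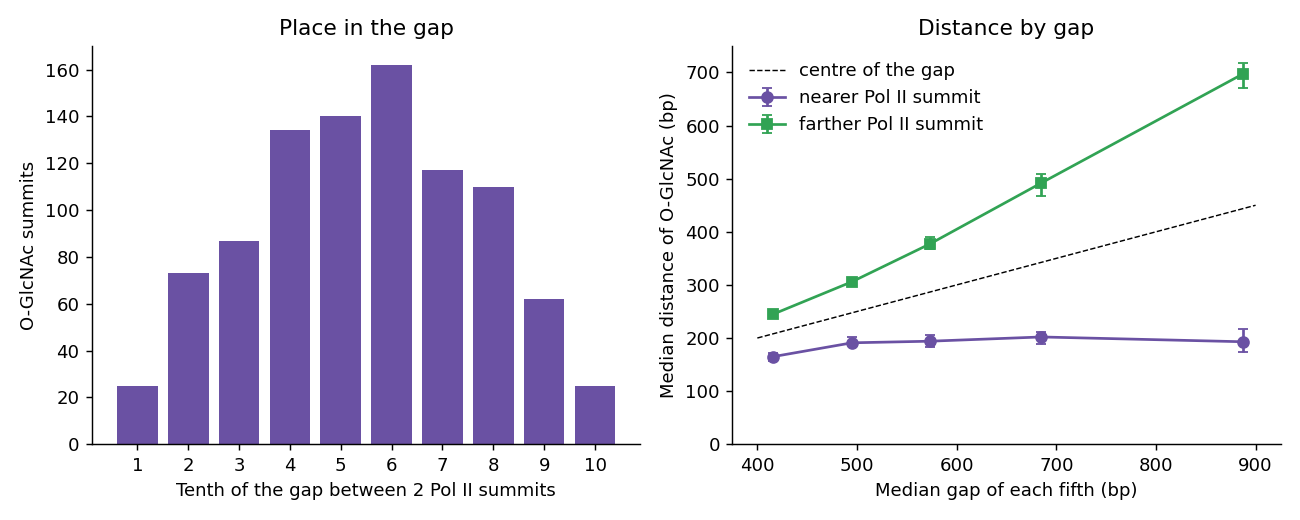
Left, number of O-GlcNAc summits in each decile of the gap between 2 Pol II summits at most 1000 bp apart (935 summits). Right, median distance in bp from O-GlcNAc to the nearer and the farther Pol II summit by quintile of the gap, with 95% order-statistic intervals and a dashed line at the centre of the gap; the nearer distance runs from 165 to 202 bp while the farther goes from 245 to 697 bp.

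Sites between 2 Pol II summits made up a larger share of the edge and outside zones than of all pairs. Over all 7298 pairs, 933 O-GlcNAc summits (12.8%, 12.0% to 13.6%) lay between 2 Pol II summits. Of the 757 O-GlcNAc summits over 50 bp outside their paired Pol II peak, 342 (45.2%, 41.7% to 48.7%) lay between 2 Pol II summits, as did 312 of the 996 in the edge zone (31.3%, 28.5% to 34.3%). Of all 1228 summits past the end of the peak, at any distance, 516 did (42.0%, 39.3% to 44.8%). The O-GlcNAc peaks between summits were wider and higher than the others, with medians of 538 and 393 bp in width and 4.70 and 3.83 in fold enrichment. Their Pol II peaks were narrower, at 453 and 704 bp. At a given distance, a summit beside a narrower peak is more often at or past its end by construction. An O-GlcNAc peak reached over 2 or 3 Pol II peaks at 724 pairs (9.92%), and at 673 of these (93.0%) its summit was between 2 Pol II summits. The highest O-GlcNAc peak with its summit between 2 Pol II summits, at chromosome 16, 12009639 to 12010269 (12.9), lay 225 bp from the Pol II summit on its left and 230 bp from that on its right. The next highest with a summit between 2 Pol II summits were off centre: chromosome 8, 146277727 to 146278076 (12.7), at 483 and 58 bp, and chromosome 13, 113808160 to 113808916 (12.6), at 466 and 71 bp.

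The distance of about 150 bp was also present where no second Pol II summit was near. At the 6031 pairs whose Pol II peak had no other Pol II summit within 1000 bp, a view added after the data were seen, the median distance was 150 bp (148 to 153 bp), and 8.94% of O-GlcNAc summits were within 50 bp. There 89.0% of O-GlcNAc summits were inside the Pol II peak, 74.0% on the flank, 10.8% in the edge zone and 6.28% outside. By quintile of Pol II width the medians were 144, 118, 141, 166 and 199 bp, and by quintile of Pol II height 142, 151, 152, 153 and 155 bp. By quintile of O-GlcNAc height they were 131, 141, 150, 158 and 169 bp, and by quintile of O-GlcNAc width 141, 136, 144, 152 and 183 bp.

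A few Pol II peaks held more than 1 O-GlcNAc peak. Of the 7807 Pol II peaks that overlapped O-GlcNAc (40.4% of all 19336), 7586 overlapped 1 O-GlcNAc peak, 216 overlapped 2 and 5 overlapped 3. Where 2 O-GlcNAc peaks were paired with the same Pol II peak, at 192 peaks with a median width of 1140 bp, their summits lay on opposite sides of the Pol II summit at 107 (55.7%, 48.7% to 62.6%). The nearer of the 2 was a median of 151.5 bp from the Pol II summit (138 to 165 bp) and the farther 505.5 bp (460 to 583 bp).

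The other targets of the series gave a scale for this distance at the same Pol II peaks. Of the 7096 Pol II peaks with a paired O-GlcNAc peak, 6899 had exactly 1, and these were compared. SPT5, a subunit of the DSIF complex that binds paused and elongating polymerase, had a peak at 6882 of them. Its summit was a median of 22 bp from the Pol II summit (21 to 23 bp) and within 50 bp at 73.5%, against 154 bp (152 to 157 bp) and 8.51% for O-GlcNAc, although the SPT5 peaks were wider, at a median of 972 bp. SPT5 was the nearer to Pol II at 5636 peaks and O-GlcNAc at 1236. These are counts within single libraries, with no test.

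TRIM28 and OGA stood farther out. TRIM28, a co-repressor that the series title names beside SPT5 as a pausing factor under its other name TIF1b, lay a median of 135 bp from Pol II (129 to 142 bp) at 4924 of these Pol II peaks, where O-GlcNAc lay at 157 bp (154 to 161 bp). OGA lay at 159.5 bp (145 to 177 bp) at 528 peaks, where O-GlcNAc lay at 166 bp (155 to 178 bp). TRIM28 was the nearer to Pol II at 2711 peaks and O-GlcNAc at 2192. OGA was the nearer at 273 and O-GlcNAc at 253. Within 50 bp of the Pol II summit lay 25.5% of the TRIM28 summits against 8.27% of the O-GlcNAc summits at the same peaks, and 19.3% of the OGA summits against 9.28%.

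The side on which O-GlcNAc lay was mostly the side of the other targets too. With positions counted from the Pol II summit towards O-GlcNAc, the median place was 16 bp (16 to 17 bp) for SPT5, 107 bp (101 to 115 bp) for TRIM28 and 149.5 bp (133 to 168 bp) for OGA. O-GlcNAc is on the positive side by construction, and the others are not. Where both summits were over 50 bp from that of Pol II, they lay on the same side at 1547 of 1714 peaks for SPT5 (90.3%, 88.8% to 91.6%), 2915 of 3423 for TRIM28 (85.2%, 83.9% to 86.3%) and 368 of 396 for OGA (92.9%, 90.0% to 95.1%). The same was counted where O-GlcNAc lay on the shorter Pol II arm, and the shares were 83.6% (80.1% to 86.7%) of 489 peaks, 71.0% (68.0% to 73.9%) of 901 and 86.9% (79.2% to 92.0%) of 107. The SPT5 peak reached farther from the Pol II summit on the O-GlcNAc side at 5286 of 7220 pairs (73.2%, 72.2% to 74.2%), with a mean of 65.9% of its length on its longer side.

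**Figure D5:**
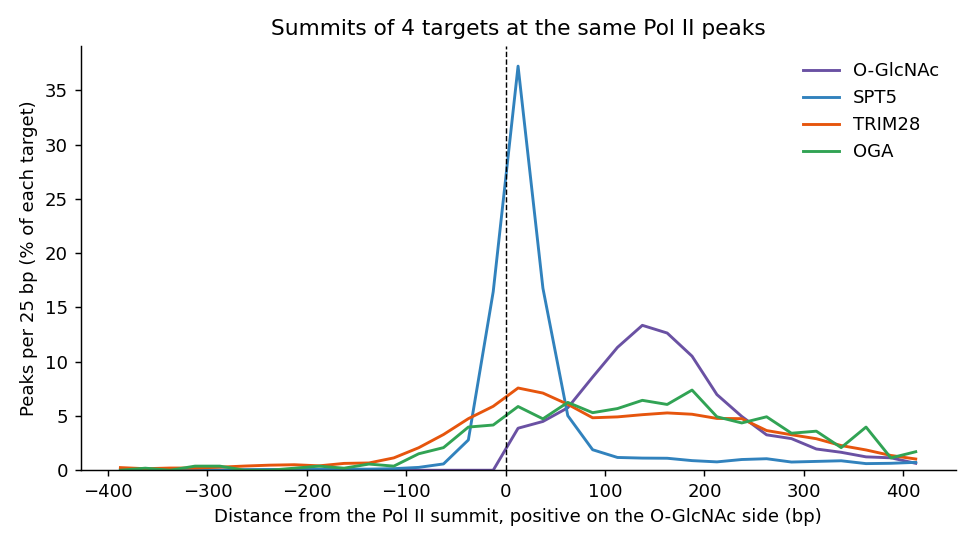
Share of the summits of each target (% per window of 25 bp) by distance from the Pol II summit in bp, counted as positive on the side of O-GlcNAc, at Pol II peaks with exactly 1 paired O-GlcNAc peak (6899 for O-GlcNAc, 6882 for SPT5, 4924 for TRIM28, 528 for OGA). SPT5 is centred near Pol II, O-GlcNAc has its highest window at 125 bp, and TRIM28 and OGA spread over the O-GlcNAc side.

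O-GlcNAc lay closer to OGA than to Pol II at most of the sites with both. The median distance between O-GlcNAc and OGA summits was 77 bp (67 to 86 bp), and it was shorter than that between O-GlcNAc and Pol II at 386 of 528 peaks (73.1%, 69.2% to 76.7%). For TRIM28 the median was 113 bp (108 to 117 bp), shorter at 3065 of 4924 (62.2%, 60.9% to 63.6%). For SPT5 it was 137 bp (134 to 139 bp), shorter at 4800 of 6882 (69.7%, 68.7% to 70.8%).

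O-GlcNAc peaks without Pol II were for the most part far from it and not just past its edge. The 1690 O-GlcNAc peaks that overlapped no Pol II peak had their nearest Pol II summit at a median of 44161 bp (39087 to 50143 bp). A Pol II summit lay within 500 bp of 55 of them (3.25%, 2.51% to 4.21%), within 1000 bp of 120 (7.10%) and within 10000 bp of 398 (23.6%). Their median fold enrichment was 3.72 (3.64 to 3.79), against 3.92 (3.87 to 3.98) for the paired ones.

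The distances rest on summits as the authors deposited them. With midpoints of the peaks in place of summits, the median distance was 109 bp (106 to 112 bp) and 25.8% of O-GlcNAc peaks lay within 50 bp of Pol II, so the outline of a peak alone placed the signals closer together than their summits did. No label or file gives the shift or extension of reads behind the summits, and its part in the distance was not tested.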

How the data were processed

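ChIP-seq peak lists of BJAB cells were used, 1 list per antibody, with groups taken from the sample titles. The submitters' processing notes name hg19 as the build and list the tools Bowtie2 2.1.0, Trimmomatic 0.30 and bcl2fastq 2.17. Which program called the peaks, with which control, read extension and threshold, is not given in these sources. The deposited fold enrichment is a ratio over an unnamed background, and it was used to rank peaks within 1 list. Values of −log10 p and −log10 q, deposited by the authors, served only for the alternatives. The other deposited column used was the summit offset, added to the peak start. Each of the 5 lists belongs to 1 sample, and pooling is not mentioned. Total reads were not analysed here, so depth is unknown. IgG libraries and peaks outside chromosomes 1 to 22 were left out.

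O-GlcNAc peaks were paired with the Pol II peak of longest overlap (at least 1 bp). Shares have 95% Wilson intervals, medians order-statistic intervals, and differences of medians the root of the summed squares of the 2 interval widths, halved. With 1 library per target no test was made. Quintiles were formed over the pairs. Named sites are the 3 highest O-GlcNAc peaks of each zone and between 2 Pol II summits, and the 3 widest Pol II peaks with O-GlcNAc. The comparison, lists and alternatives were chosen with earlier results of these data known. The code was tested on simulated data, and bedtools 2.31.1 gave the same count of 7298 overlapping peaks. Calculations ran in Python 3.11.15 with pandas 2.3.3, numpy 2.4.6, scipy 1.17.1 and matplotlib 3.10.9. The reference tables were of another build, so neither genes nor sequences were used.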

Additional observations from a re-analysis of the deposited data

Results flagged for a closer look

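Chromosome X was outside the comparison and had a lower overlap and a lower share of O-GlcNAc summits inside Pol II peaks. Of its 263 O-GlcNAc peaks, 180 overlapped 1 of the 553 Pol II peaks there (68.4%, 95% Wilson interval 62.6% to 73.8%), against 81.2% (80.4% to 82.0%) on chromosomes 1 to 22. The median summit distance of these 180 pairs was 169.5 bp (159 to 187 bp), against 157 bp (155 to 160 bp) on chromosomes 1 to 22. O-GlcNAc summits lay inside the Pol II peak at 73.3% (66.4% to 79.3%), against 83.2% (82.3% to 84.0%), and 71.4% to 91.7% on single autosomes. They lay within 50 bp of its summit at 6.67% (3.85% to 11.3%), against 8.30% (7.69% to 8.96%).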

How the results depend on the processing

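Of 92 alternative values for 11 results, 47 stayed within the 95% interval of the reported value, 44 moved beyond it and 1 turned. Only the differences between end quintiles have a sign that can turn. The view of isolated Pol II peaks and the result by O-GlcNAc height were added after the data were seen. Where a setting removes peaks or widens a zone, a change follows by construction; the cause of the others was not tested. With a −log10 q of at least 5, the overlap was 83.2% and the share within 50 bp 7.61%. With an overlap of 50% of the shorter peak, the overlap was 74.5%, the distance 151 bp, the share within 50 bp 9.0%, inside 89.1%, at an edge 11.1%, the position 0.353, the longer arm 70.8% and the width difference 52.5 bp. With the Pol II list shortened to the O-GlcNAc length, the values in the same order were 63.9%, 161 bp, 7.63%, 87.3%, 10.5%, 0.351 and 69.5%, and 3.10% lay between 2 Pol II summits. With peaks within 500 bp merged, 90.1% were inside, 9.21% at an edge, the position was 0.346, the longer arm 72.6%, the share between summits 0.254% and the width difference 85 bp. With midpoints, the distance was 109 bp, the share within 50 bp 25.8%, inside 84.9%, the position 0.319 and the difference by O-GlcNAc height 29 bp, and the difference by Pol II height turned from 9 to -18 bp. With the nearest overlapping summit, 14.9% were at an edge. With isolated Pol II peaks, the distance was 150 bp, inside 89.0%, at an edge 10.8%, the position 0.348, the longer arm 71.5%, the width difference 55 bp and the difference by O-GlcNAc height 38 bp. Zones of 25 and 100 bp gave 3.88% and 22.6% at the summit and 7.18% and 24.4% at an edge. Gaps of at most 500 and 2000 bp gave 3.32% and 13.7% between summits, and arms at least 1.5 times as long gave 79.2% on the longer arm. No paired analysis was possible because each target had 1 library.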
